A study of Mus musculus with 4 samples.

Results

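The RNA of 8 genes was lower in Nrp1-positive than in Nrp1-negative regulatory T cells: Dapl1, Igfbp4, Tmie, Adh1, Asb2, Sccpdh, Dsp and Xkrx. They are 8 of the 18193 genes with a probe set of their own on the array, and of the 10200 whose level passed the filter used here. The members were chosen by their measured difference between these same Nrp1-positive and Nrp1-negative arrays, so that difference is given as a description, with no test, and supports nothing by itself. The cells were CD4+ Foxp3+ spleen cells of Balb/c Foxp3 GFP mice, in which green fluorescent protein reports Foxp3, the master transcription factor of regulatory T cells, and they were sorted by surface Nrp1 (neuropilin-1, which binds semaphorins and the growth factor VEGF). There were 2 Nrp1-positive and 2 Nrp1-negative arrays, numbered replicate 1 and 2 in each group. By label the mice were 4 to 6 weeks old, or 4 to 8 weeks for Nrp1-negative replicate 1. The source name and cell type of that array read Nrp+, and its group was taken from its title. The labels do not state whether replicates were separate animals or sorts, so p-values measure only the spread between these arrays, and that spread may be technical.

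Regulatory T cells restrain other lymphocytes, and they arise either in the thymus or from conventional CD4 T cells in peripheral tissue. Nrp1 is widely used in mice as a surface marker of the thymus-derived cells, and Nrp1-negative cells are often read as a population that holds more of the peripherally derived ones. Dapl1 and Igfbp4 are both known as genes of naive T cells, while most of the other genes here are better known from epithelia, liver, muscle or the inner ear. In sorted bulk cells, fewer cells that carry an RNA and less of that RNA in each cell cannot be told apart.

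The promoter sequences of 4 of the genes are printed because their RNA followed the closest patterns over the arrays. By the brightest probe set of each gene, Xkrx was the gene nearest to Dapl1, and Adh1 the member nearest to Igfbp4. Each window runs from 250 bases before to 50 bases after the annotated start, on the gene's own strand, from RefSeq on GRCm38.p6. The windows are chr2:59484403-59484702 on the plus strand for Dapl1, chrX:134162910-134163209 on the minus strand for Xkrx, chr11:99040994-99041293 on the plus strand for Igfbp4 and chr3:138277335-138277634 on the plus strand for Adh1. Capitals mark matches, on either strand, to any of 8 motifs (Foxo, Tcf/Lef, E-box, Runx, AP-1, NFAT, Klf and TATA box), whose letters are given beside their counts.
Dapl1: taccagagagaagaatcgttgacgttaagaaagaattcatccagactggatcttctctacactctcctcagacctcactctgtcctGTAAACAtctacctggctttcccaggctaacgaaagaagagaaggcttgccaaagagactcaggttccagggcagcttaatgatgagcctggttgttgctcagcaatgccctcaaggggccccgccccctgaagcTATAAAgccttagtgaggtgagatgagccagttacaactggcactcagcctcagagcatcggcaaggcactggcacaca
Xkrx: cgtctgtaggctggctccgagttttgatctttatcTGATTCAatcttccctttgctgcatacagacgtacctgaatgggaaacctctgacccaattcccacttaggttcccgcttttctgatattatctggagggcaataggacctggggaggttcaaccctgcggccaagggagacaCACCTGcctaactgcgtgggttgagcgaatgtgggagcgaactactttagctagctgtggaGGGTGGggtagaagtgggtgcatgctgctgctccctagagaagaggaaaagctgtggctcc
Igfbp4: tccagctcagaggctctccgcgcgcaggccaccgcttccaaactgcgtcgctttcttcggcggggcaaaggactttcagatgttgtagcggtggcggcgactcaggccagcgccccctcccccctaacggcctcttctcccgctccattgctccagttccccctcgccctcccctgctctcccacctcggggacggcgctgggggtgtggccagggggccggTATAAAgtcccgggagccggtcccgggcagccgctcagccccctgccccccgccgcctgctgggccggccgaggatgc
Adh1: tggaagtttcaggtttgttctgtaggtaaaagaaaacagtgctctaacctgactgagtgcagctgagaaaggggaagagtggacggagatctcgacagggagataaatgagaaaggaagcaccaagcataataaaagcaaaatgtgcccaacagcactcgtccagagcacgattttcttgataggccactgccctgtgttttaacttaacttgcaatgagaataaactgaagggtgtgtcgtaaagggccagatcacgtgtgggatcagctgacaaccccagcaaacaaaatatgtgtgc

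Dapl1 and Igfbp4 each hold the TATA box letters TATAAA upstream of the start, with the first base at −29 in Dapl1 and −28 in Igfbp4, with the start site counted as 1. That motif, on either strand, stood in 13.6% of the 32851 RefSeq promoter windows of the same length. Dapl1 also holds the Foxo letters GTAAACA at −164, present in 3.65% of all windows. Xkrx holds an E-box match at −72, an AP-1 match at −215, where the pattern fits either strand, and a Klf match on the reverse strand at −11. No searched motif stood in the Adh1 window, which says only that these letters are not in it. All 8 genes matched, with 9 windows because Asb2 has 2 annotated starts, and they lie on 8 different chromosomes. Across the 9 windows the E-box letters CACCTG stood in 2, against 20.2% of all windows. The Runx letters TGTGGTT stood in 1 window, of Asb2, against 5.27% of all windows. The AP-1 letters TGANTCA stood in 1, against 7.81% of all windows. The Klf letters CCACCC stood in 4, of Tmie, Asb2, Sccpdh and Xkrx, against 31.5% of all windows. The Tcf/Lef letters CTTTGAA stood in 0 of the 9 and in 5.14% of all windows. The NFAT letters TGGAAA stood in 0 of the 9 and in 21.4% of all windows. No matches of different motifs overlapped in the 9 windows. The windows also differed in composition. Igfbp4, Tmie, Sccpdh and Dsp had between 71.3% and 74.7% G plus C and 27 to 43 CpG pairs, while Dapl1, Adh1, Xkrx and both Asb2 windows had between 45.3% and 56.7% and 5 to 8 CpG pairs, against medians of 52.7% and 7 over all windows.

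Values are linear intensities after all 4 arrays were scaled to a trimmed mean of 500. A difference is always Nrp1-positive minus Nrp1-negative, taken on the log2(intensity + 18.33) scale, which draws the differences of dim genes towards 0. The median of all probe sets was 76.69 and 71.05 in Nrp1-positive replicates 1 and 2 and 78.16 and 67.39 in Nrp1-negative ones. In Nrp1-positive replicate 1, Sccpdh (36.5) and Dsp (39.1) lay under that median. No detection calls were used, and how much of such dim values is background was not tested. One probe set represents a gene, the one with the highest mean level. Each difference is the mean of the 2 differences within a replicate number, with their SD (n = 2). Nrp1 itself, the sorted marker, had 9344 and 7745 in Nrp1-positive replicates 1 and 2, against 339 and 1223 in the Nrp1-negative arrays of the same numbers. The array with conflicting labels, Nrp1-negative replicate 1, had the lowest Nrp1 of all 4.

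Dapl1 (death-associated protein-like 1) encodes a small protein whose relatives in zebrafish and frog eggs plug the exit tunnel of stored ribosomes. It had intensities of 272 and 327 in Nrp1-positive replicates 1 and 2, against 858 and 923 in the Nrp1-negative arrays. Within each group the 2 arrays gave similar values. The difference was −1.52 ± 0.11 (SD, n = 2), at −1.59 in replicate number 1 and −1.44 in number 2, and a single probe set measured the gene.

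Igfbp4 encodes a secreted protein that binds insulin-like growth factors and is cut by the protease made by Pappa. Its representing probe set had 3056 and 2302 in Nrp1-positive arrays, against 7587 and 6073 in Nrp1-negative arrays, a difference of −1.35 ± 0.06. Within both groups the array numbered 2 was the lower one. The other 5 Igfbp4 probe sets were also lower in Nrp1-positive cells in both replicate numbers, with mean differences from −1.18 to −2.60. The widest was at probe set 1437406_x_at, with 964 and 588 in Nrp1-positive against 5857 and 3731 in Nrp1-negative arrays, and the ending x marks a probe set with probes that can match other transcripts. The dimmest, 1421991_a_at, was the least even, at −1.88 in number 1 and −0.49 in number 2.

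Adh1, the cytosolic alcohol dehydrogenase that oxidises ethanol and retinol, had 86.5 and 71.8 in Nrp1-positive arrays, against 246 and 231 in Nrp1-negative arrays. Its difference was −1.40 ± 0.10, nearly the same in both numbers. Like the representing probe set of Igfbp4, it was a little lower on the arrays numbered 2 in both groups.

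Asb2 encodes the substrate-binding subunit of a cullin 5 ubiquitin ligase known for marking filamins for degradation. It had 129 and 199 in Nrp1-positive arrays, against 405 and 571 in Nrp1-negative arrays, a difference of −1.48 ± 0.06. Both groups were higher on the array numbered 2, and the difference was nearly equal in both numbers. Xkrx belongs to the Xk family of membrane proteins, which includes the lipid scramblase Xkr8. It had 85.9 and 126 in Nrp1-positive arrays, against 256 and 277 in Nrp1-negative arrays, a difference of −1.22 ± 0.26. Of the 8 genes it had the smallest mean difference.

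Tmie, Sccpdh and Dsp were less even between the replicate numbers. Tmie, a transmembrane protein of the mechanotransduction channel of inner ear hair cells, had 161 and 198 in Nrp1-positive arrays, against 617 and 430 in Nrp1-negative arrays. Its difference was −1.83 in number 1 and −1.05 in number 2, and a second passing probe set, 1441926_x_at, ran the other way round at −0.60 and −1.28. Another Tmie probe set lay below the level filter and gave −0.25 and −1.50.

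Sccpdh encodes a protein like the oxidoreductase saccharopine dehydrogenase. It had 36.5 and 176 in Nrp1-positive arrays, against 180 and 349 in Nrp1-negative arrays, so Nrp1-negative replicate 1 stood only just above Nrp1-positive replicate 2. The difference was −1.86 in number 1 and −0.92 in number 2. It was −0.47 without Nrp1-positive replicate 1 and −2.30 without Nrp1-positive replicate 2, in comparisons that mix replicate number with group. Its other probe set, 1438909_at, was below the level filter and did not share the direction, with 73.3 and 52.1 in Nrp1-positive against 75.5 and 9.60 in Nrp1-negative arrays.

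Dsp encodes desmoplakin, which ties desmosomes, the adhesive junctions of epithelial and heart muscle cells, to intermediate filaments. Probe set 1435494_s_at had 39.1 and 86.8 in Nrp1-positive arrays, against 188 and 196 in Nrp1-negative arrays. Nrp1-positive replicate 1 was the lowest, and the difference was −1.84 in number 1 and −1.03 in number 2. Probe set 1435493_at gave −1.37 and −0.97, and probe set 1427610_at was below the filter at 34.0 and 27.0 in Nrp1-positive against 21.3 and 5.04 in Nrp1-negative arrays, with differences of 0.40 and 0.96.

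**Figure D1:**
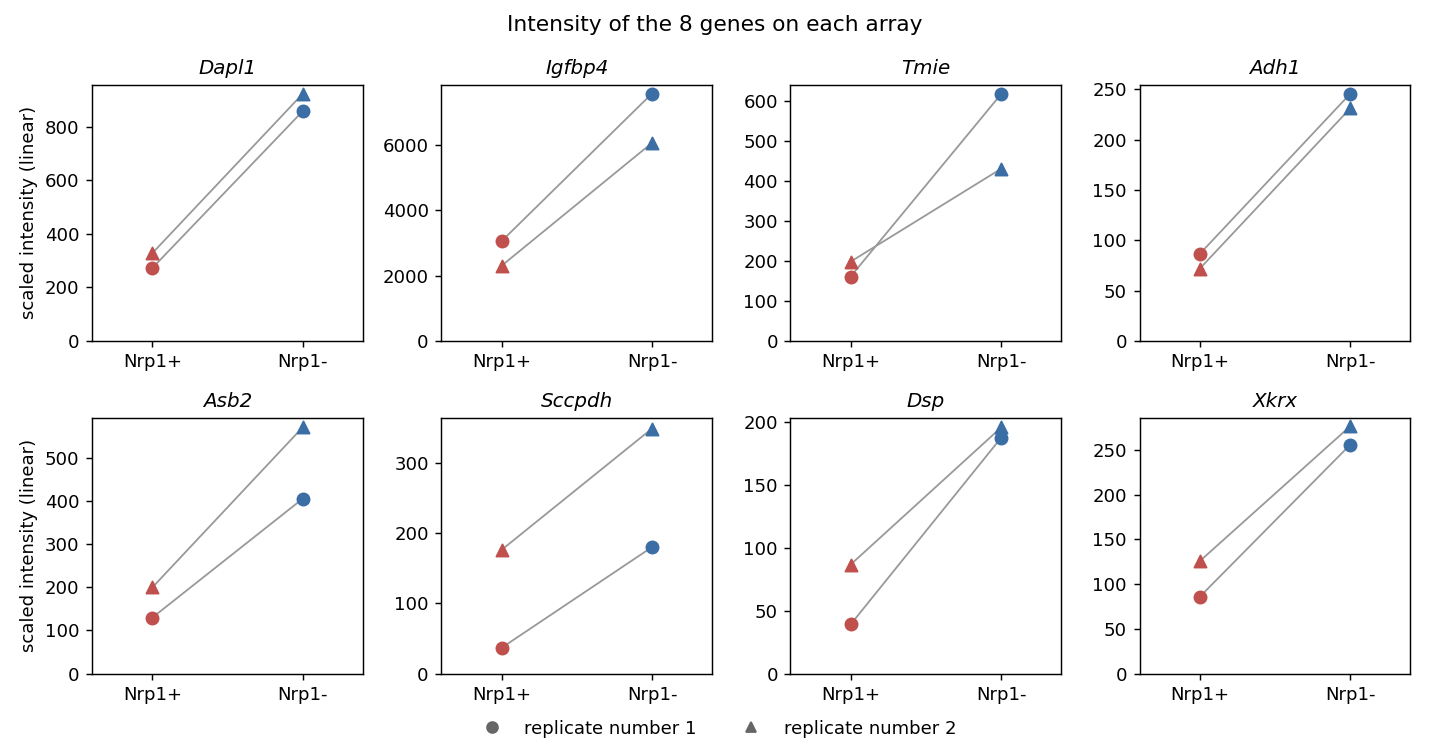
Scaled intensity (linear axis from 0) of the probe set that represents each gene, with Nrp1-positive arrays left and Nrp1-negative arrays right; circles are replicate number 1, triangles number 2, and a line joins the 2 arrays of a number. In all 8 panels both Nrp1-positive points lie under both Nrp1-negative points, and for Sccpdh the groups nearly touch, at 176 and 180.

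In all 8 genes both Nrp1-positive arrays were under both Nrp1-negative arrays, which held for 9.15% of the 10200 genes, and the choice of the members fixes this, so nothing is read from it. The median difference of the 8 was −1.42, against 0.0038 over all genes tested, and it was −1.56 in replicate number 1 and −1.22 in number 2. As ratios of Nrp1-negative over Nrp1-positive on the same scale, they ran from 2.32 for Xkrx to 2.87 for Dapl1. Counted from the most negative of the 10200 differences, the 8 genes held places between 8 (Dapl1) and 21 (Xkrx). A difference of −1 or below in both replicate numbers was met by 17 genes, and 7 of the 8 were among them, Sccpdh being the exception. If the array with conflicting labels was moved to the Nrp1-positive group, all 8 stayed below 0, between −1.52 and −0.63, with Tmie at −0.63, Igfbp4 at −0.69 and Adh1 at −0.88. The choice of the members largely fixes that sign too, and this comparison had no replicate block, so it mixes replicate number with group.

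Of the 18 probe sets of these genes, 15 passed the level filter, and all 15 were lower in Nrp1-positive cells in both numbers. They passed partly through the group where they are high, so that count is not evidence. Of the 3 below the filter, the Tmie probe set was lower in both numbers, and those of Sccpdh and Dsp were not.

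**Figure D2:**
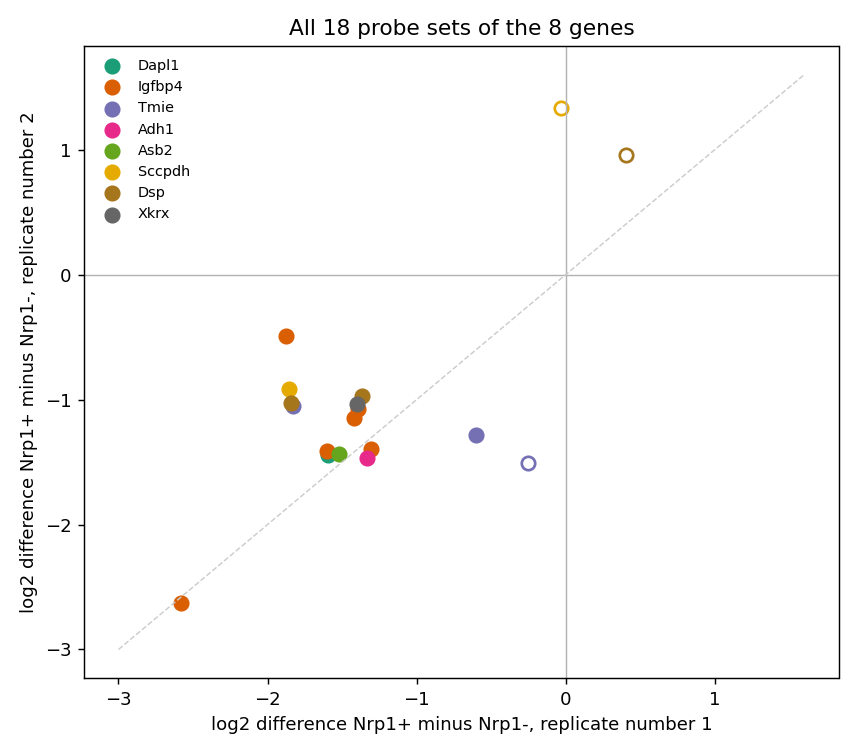
Log2 difference, Nrp1-positive minus Nrp1-negative, of each of the 18 probe sets in replicate number 1 (horizontal) and number 2 (vertical), coloured by gene; filled points passed the level filter, open points did not, and the dashed line marks equal differences. The 15 filled points lie below 0 on both axes, and the open points of Sccpdh and Dsp lie above 0 on the vertical axis.

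How the genes varied between the array pairs was not used to choose them. In limma, with group in the model and two-sided p adjusted over all 10200 genes, 1 of the 8 was higher and 1 lower on the arrays numbered 2 than on those numbered 1, where 13.0% of all genes were called higher and 11.7% lower. Sccpdh was the higher one, by 1.36 (standard error 0.31, adjusted p = 0.0140 in limma), on both arrays of number 2. Igfbp4 was lower at its representing probe set, by −0.36 (standard error 0.10, adjusted p = 0.0282 in limma). Neither gene was called without the mean-variance trend of the test. The other 6 genes were not called, with values from −0.15 for Adh1 to 0.52 for Asb2. The Igfbp4 shift was not shared by all its probe sets. Probe set 1423756_s_at was higher on the arrays numbered 2, with 1044 and 1327 in Nrp1-positive against 3200 and 3559 in Nrp1-negative arrays. So was 1421992_a_at, while 1437406_x_at and 1423757_x_at were lower there in both groups and 1421991_a_at was mixed. The other Sccpdh probe set, below the level filter, was lower there in both groups. Markers of some other cells also differed between the replicate numbers. Of 9 tested myeloid and dendritic cell markers, 8 were called higher on the arrays numbered 2, with a list median of 1.99, and their summed intensity was 6234 and 27652 in Nrp1-positive replicates 1 and 2 and 4338 and 30639 in Nrp1-negative ones. Called higher on the arrays numbered 2 were 4 of 7 CD8 T and NK markers (median 0.75), while 0 of 2 B cell markers and 0 of 1 erythroid marker were called. Of 2 epithelial markers, 1 was called higher, Epcam by 1.01. Of 4 plasmacytoid dendritic markers, Ccr9 was called higher by 0.94 and Bst2 lower by −2.39. Of 10 T cell and Treg markers, 2 were called higher, Ctla4 by 0.55 and Tnfrsf18 by 0.38. Another 2 of these were called lower, Cd4 by −1.57 and Cd3e by −0.51.

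Between the groups, the markers of other cells were not called. Limma with the replicate number as a block (adjusted p below 0.05 over all 10200 genes) called 0.167% of genes lower and 0.284% higher in Nrp1-positive cells, that is 17 and 29, and 878 genes had an unadjusted p below 0.05. The counts of lower and higher genes were 0 and 0 without the block or without the mean-variance trend, and 62 and 107 after quantile normalisation. None of the 25 tested markers of B, myeloid, CD8 T with NK, plasmacytoid dendritic, erythroid or epithelial cells was called in the fit with the block, with 3 at an unadjusted p below 0.05. Because Dsp is an epithelial gene, the epithelial list was looked at whole, and 5 of its 7 genes lay below the level filter. Of these, Krt8 and Krt14 were at 34.95 or less on every array. Krt18, Cdh1 and Cldn4 reached at most 77.4, 84.2 and 55.2 on any array. Krt5, which was tested, had 45.6 and 66.4 in Nrp1-positive against 125 and 76.1 in Nrp1-negative arrays. Epcam, the other tested gene of the list, had 230 and 391 in Nrp1-positive against 165 and 433 in Nrp1-negative arrays, a difference of 0.15. The summed intensity was 416 and 676 in Nrp1-positive against 512 and 684 in Nrp1-negative arrays. All 7 stromal markers and all 5 endothelial markers lay below the filter, at sums of at most 269 and 139 on any array. The erythroid sum was 113 and 72.3 in Nrp1-positive against 159 and 348 in Nrp1-negative arrays, with 3 of 4 genes below the filter. The B cell, myeloid, CD8 T with NK, plasmacytoid and erythroid genes furthest from 0 were Cd79b at 0.52, Itgax at −0.53, Nkg7 at 0.76, Tcf4 at 0.24 and Klf1 at −0.80. The part of other cells in the 8 genes' difference was not tested. Of the T cell and Treg markers, Cd3d, Cd3g and Ctla4 were high on all arrays, Nrp1 and Ikzf2 (Helios) were called higher (each with an adjusted p = 0.9998 in limma without the block and 0.4397 without the trend), and the Foxp3 probe set was dim, at 2.16 and 19.9 in Nrp1-positive against 4.45 and 36.3 in Nrp1-negative arrays. Cd4 was alike in the groups but lower on both arrays numbered 2. It had 2261 and 755 in Nrp1-positive against 2199 and 723 in Nrp1-negative arrays. Cd3e was also lower there, with 7924 and 5243 in Nrp1-positive against 8016 and 5988 in Nrp1-negative arrays.

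None of the pathway partners and relatives of the 8 genes passed the test in the fit with the block. Rarg was called higher under 4 other settings (both other pseudocounts, quantile normalisation and the mean of passing probe sets), and Igf2r under the last 2 of these. Over 8 lists of such genes, 55 were tested and 0 were called in either direction in limma with the block. Of all genes that fit called 0.167% lower and 0.284% higher, so a count of 0 in 55 says little. An unadjusted p below 0.05 in limma was met by 7 of the 55, against 878 of all 10200 genes. In the insulin-like growth factor list beside Igfbp4, 5 of 17 genes passed the level filter and 0 were called. The receptor genes Igf1r and Igf2r differed by 0.44 and 0.49, the opposite sign to Igfbp4, and Igf2r had an adjusted p = 0.0979 in limma. Igfbp7, which encodes another binding protein, differed by −0.91 and was dim and uneven, at 122 and 29.8 in Nrp1-positive against 212 and 85.9 in Nrp1-negative arrays. Igfbp1, Igfbp2, Igfbp3, Igfbp5, Igfbp6 and the protease gene Pappa lay below the filter.

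Of 16 tested genes of retinoid and alcohol metabolism beside Adh1, 0 were called, and the list median was 0.02. Adh5, the class III alcohol dehydrogenase, had 5147 and 5071 in Nrp1-positive against 5627 and 4936 in Nrp1-negative arrays, a difference of −0.04. The furthest were Stra6, a receptor for retinol-binding protein, at 1.03 (adjusted p = 0.285 in limma) and the retinoic acid receptor gene Rarg at 0.76 (adjusted p = 0.0713), with 1437 and 746 in Nrp1-positive against 774 and 471 in Nrp1-negative arrays. Both had the opposite sign to Adh1.

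Of 12 tested genes of the Asb family, the cullin 5 ligase and the filamins, 0 were called (median −0.04). Asb6 was the furthest at 0.37, Cul5 differed by −0.13, and Flna, a filamin gene, by 0.27. Beside Dsp, 3 of 13 desmosome and plakin genes passed the filter, and Pkp3, Pkp4 and Plec differed by −0.05, −0.13 and 0.18. Beside Tmie, the channel genes Tmc1 and Tmc2 were below the filter, and Tmc4, Tmc6 and Tmc8 differed by −0.30, −0.15 and −0.14. Beside Xkrx, Xkr8 differed by −0.0046 and Ano6, a calcium-activated scramblase, by 0.12, and 0 of 7 tested genes of that list were called. Dap, the paralogue of Dapl1, differed by 0.32 with 3110 and 3620 in Nrp1-positive against 2268 and 3173 in Nrp1-negative arrays (adjusted p = 0.403), and its list had 0 of 6 called. Beside Sccpdh, 0 of 3 tested lysine degradation genes were called, the furthest being Gcdh at −0.39.

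**Figure D3:**
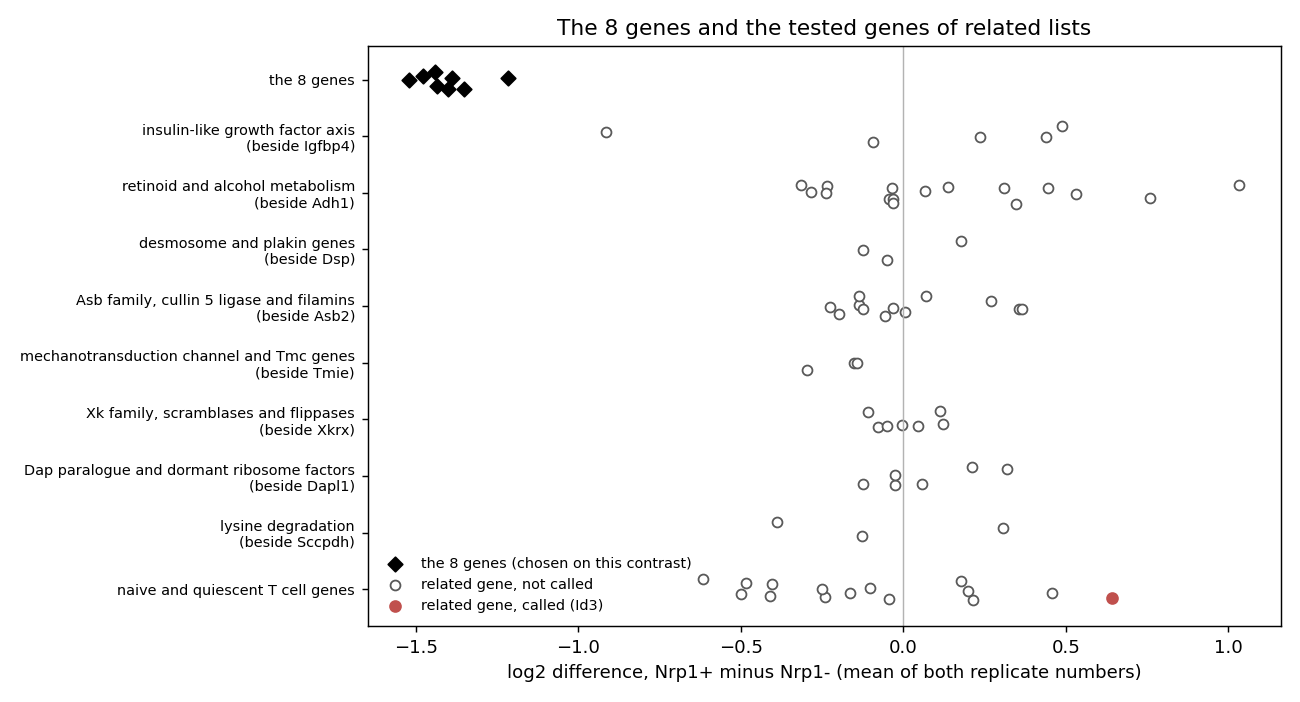
Log2 difference, Nrp1-positive minus Nrp1-negative, for the 8 genes (diamonds) and for each tested gene of the lists named at the left (circles, filled where called in limma with the replicate block). The 8 genes lie between −1.52 and −1.22, and Id3 at 0.64 is the filled circle.

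Naive and quiescent T cell genes, the company in which Dapl1 and Igfbp4 are usually found, were also looked at. Of 15 tested, 0 were called lower, 1 was called higher and 14 were not called. An unadjusted p below 0.05 in limma was met by 6 of the 15, against 878 of all 10200 genes. The list as a set was not tested. After quantile normalisation Ccr7, Actn1 and Satb1 were called lower, and Ccr7 also with the mean of passing probe sets. Id3, an inhibitor of E proteins, rose in Nrp1-positive cells by 0.64 (standard error 0.10, adjusted p = 0.0364 in limma), with 3394 and 3290 in Nrp1-positive against 2144 and 2124 in Nrp1-negative arrays. Below 0 in both replicate numbers were 7 of the 15, against 2655 of all 10200 genes, and the list median was −0.16. The chemokine receptor gene Ccr7 differed by −0.50, with 4527 and 3802 in Nrp1-positive against 6106 and 5637 in Nrp1-negative arrays (adjusted p = 0.0969), and Actn1 and Satb1 by −0.48 and −0.40. Above 0 in both numbers were 4, among them the interleukin-7 receptor gene Il7r at 0.46. The calls rest on the block and on the mean-variance trend: without either one, Id3 had an adjusted p of 0.9998 or 0.4397 in limma.

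Among the other tested genes, those with the pattern most like the 8 were looked for by the root mean square difference of log2 values, each gene centred on its own mean over the 4 arrays. These genes share the contrast on which the members were chosen, so likeness is a description. Nearest to Dapl1 were Xkrx (0.17), Asb2 (0.17) and Slc16a5 (0.18), a gene of the monocarboxylate transporter family. Slc16a5 had 82.6 and 75.1 in Nrp1-positive against 276 and 230 in Nrp1-negative arrays. Nearest to Igfbp4 were the RIKEN gene 4930486L24Rik (0.10), Adh1 (0.11) and again Slc16a5 (0.12).

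Nearest to the mean of the 8 genes, the members left aside, were Itgb5 (0.22), an integrin beta chain, Tgfbr3 (0.22), a coreceptor for TGF-beta, Slc16a5 (0.23), Upk2 (0.25), a uroplakin of bladder epithelium, and Arnt2 (0.27), a basic helix-loop-helix transcription factor. Itgb5 had 328 and 468 in Nrp1-positive against 764 and 812 in Nrp1-negative arrays. Tgfbr3 was nearly equal in the replicate numbers, with 455 and 440 in Nrp1-positive against 977 and 1025 in Nrp1-negative arrays. Among the 28 pairs of the 8 genes themselves, each at its representing probe set, Igfbp4 and Adh1 were the most alike (0.11). Igfbp4 and Sccpdh were the least alike (0.90), which follows the opposite shifts of these probe sets between the replicate numbers. Other probe sets of Igfbp4 and Sccpdh did not all share these shifts.

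**Figure D4:**
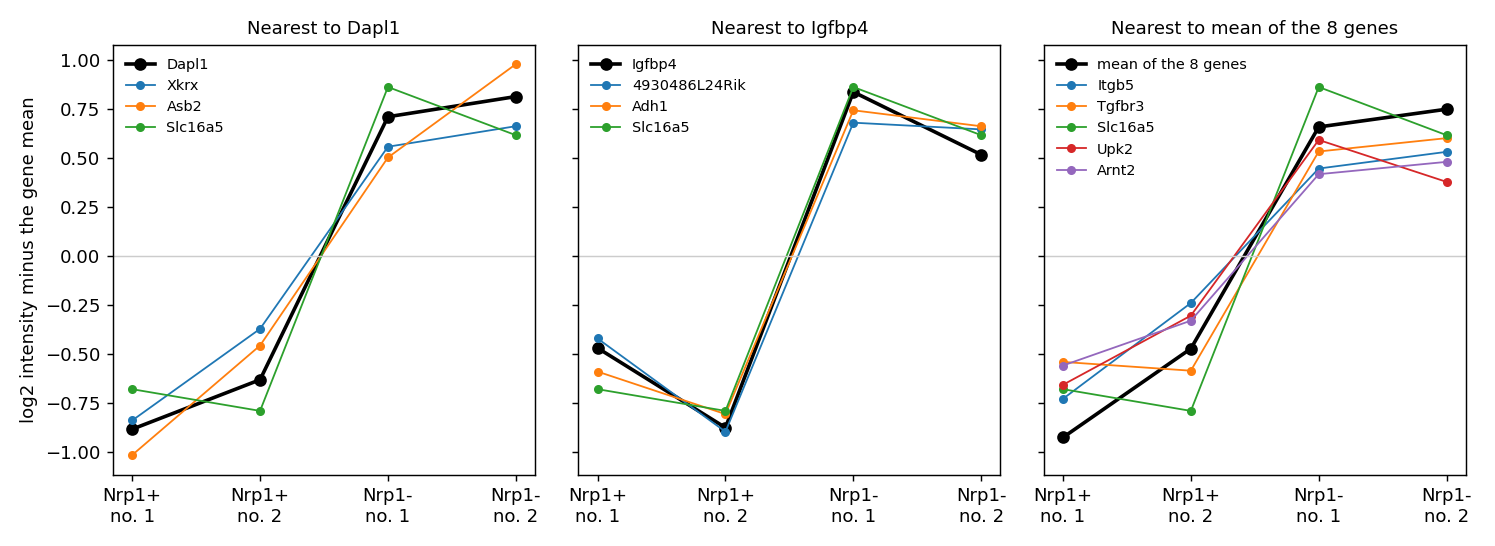
Log2 intensity minus each gene's mean over the 4 arrays, for Dapl1, Igfbp4 and the mean of the 8 genes (black) and the tested genes nearest to each (colours); lines only join the points of a gene. The mean of the 8 genes stands lowest on Nrp1-positive number 1, while Igfbp4 and Adh1 stand lowest on Nrp1-positive number 2.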

How the data were processed

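Biotin-labelled total RNA had been hybridised to 1-colour Affymetrix mouse arrays, per the labels' protocols. The deposited values are probe set intensities made by the authors with MAS5, per the submitters' processing notes, which give no settings. By their values, the deposited arrays had been scaled, both numbered 1 to a mean of 500.003 and both numbered 2 to 150.001, after 2% trimming at each end. Here all were scaled to 500 and analysed as log2(intensity + 18.33), the pseudocount being 0.25 of the mean array median. Of 45101 probe sets, 34945 were listed with 1 gene, 932 with several, 9160 were unnamed here and 64 were controls. The filter kept probe sets whose mean level reached percentile 50, and a gene was represented by its brightest, which gave 10200 genes. Groups came from the titles.

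Limma 3.58.1 in R 4.3.3 was fitted on all genes with group and replicate number (eBayes with a mean-variance trend, Benjamini-Hochberg at 0.05) and tested on simulated data. With 1 residual degree of freedom per gene, 7.84 more came from the variance prior. The replicate number was a block because the rule for the members compares within it. Across genes, arrays of one number correlated at 0.980 and 0.984 and arrays of one group at 0.956 and 0.941, and deviations from the group means of same-numbered arrays at 0.73. The 8 members and all lists were chosen with earlier results of these data known. Named genes were the members, the called genes of each list (at most 4) or its furthest gene with close relatives and partners, and the nearest patterns. Some other list genes (Rarg, Epcam, Krt8, Krt14, Krt18, Cdh1, Cldn4, Cd3d, Cd3e, Cd3g, Cd4, Ctla4, Tnfrsf18, Lyz1, Lyz2, Ccr9, Bst2, Ccr7, Actn1, Satb1, Il7r, Pkp4, Plec, Tmc6 and Tmc8) were named after their values were seen. Drawings used matplotlib 3.10.9. Only 4 arrays limit the precision.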

Additional observations from a re-analysis of the deposited data

How the results depend on the processing

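In the alternatives in which member differences were recomputed, all members tested were lower in Nrp1-positive cells, 8 of 8 except at a filter at percentile 60, where 5 passed. The choice of the members largely fixes this sign, so nothing is read from it. The median of the 8 moved beyond its spread to −1.13 with the mean array median as pseudocount and to −0.94 when the array with conflicting labels, Nrp1-negative replicate 1, was moved to the Nrp1-positive group, and ran from −1.61 to −1.25 over arrays left out. Leaving out an array was fitted with no replicate block, since 3 arrays leave no residual with it, and moving that array was also fitted with no replicate block. Both mix replicate number with group. Genes called higher and lower in Nrp1-positive cells (29 and 17) were 107 and 62 after quantile normalisation, 123 and 61 with the mean of passing probe sets, 44 and 32 with the mean array median as pseudocount, and 41 and 30 with a pseudocount of 1. Limma with no replicate block called 0 and 0 (147 at an unadjusted p below 0.05), without the mean-variance trend 0 and 0 (873), with the array moved 0 and 0 (295), and with an array left out 0 to 1 and 0 to 1 (100 to 264). Genes of the partner and naive T cell lists called (1, Id3) were 7 after quantile normalisation, adding Actn1, Ccr7 and Satb1 as lower and Igf2r, Il7r and Rarg as higher, 5 with the mean of probe sets, 2 with either other pseudocount, adding Rarg, and 0 with no replicate block, no trend, an array left out or the array moved. Marker genes called (2, Nrp1 and Ikzf2) were 0 in these 4 too, except 1 without Nrp1-negative replicate 2. After quantile normalisation and with the mean of passing probe sets, 3 marker genes were called. Genes called between the replicate numbers (2522) were 576 without the trend, and members called there (2) were 0 without the trend and 1 at percentile 60. The cause of these shifts was not tested.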
